A study of Mus musculus with 12 samples.

Results

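Vsx1, Sebox, Bhlhe23, Isl1, Cabp5, Scgn, Grik1 and Neto1 are 8 genes used to recognise bipolar cells and their subtypes in the mouse retina, and they were followed here by gene symbol among 56748 genes of 1 table. Each symbol occurred on 1 row, and all 8 genes passed the filter on low values in every comparison. The table holds RNA-seq of 12 libraries, 3 in each of 4 groups, from control and Rodko mice. Both genotypes carried the RiboTag allele, which puts an HA tag on ribosomes of Cre-expressing cells, and the i75 rod Cre, which is driven by a rod promoter. Control mice had 1 floxed Pkm2 allele and Rodko mice had both floxed, so a mouse without Cre or without a floxed allele was not among the groups. Animals were perfused with cycloheximide, and controls were littermates. The age is 2 months in the methods and 2 weeks in the series description. RNA of the whole retinal lysate is called retina below, and RNA bound to HA-tagged polyribosomes pulled down from it (Rod-TRAP) is called rods. In bulk RNA of this kind, fewer cells of a type and less RNA per cell cannot be told apart.

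Bipolar cells carry the signals of photoreceptors to amacrine and ganglion cells. Rod bipolar cells receive input mainly from rods and respond to light onset through the metabotropic receptor mGluR6, whereas cone bipolar cells divide into ON and OFF types, the latter using AMPA and kainate receptors. The rod promoter is not active in them, so Rod-TRAP is designed to leave their RNA behind. Vsx1 and Isl1 encode homeodomain factors of cone bipolar subsets and of ON bipolar cells, Isl1 being used by ganglion and starburst amacrine cells too. Bhlhe23 encodes a basic helix-loop-helix factor needed for rod bipolar maturation, and Sebox a homeodomain protein. Cabp5 and Scgn encode EF-hand calcium-binding proteins of bipolar subtypes, Grik1 the GluK1 kainate receptor subunit, and Neto1 an auxiliary subunit of kainate receptors.

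The Pkm row, which counts the Pkm1 and Pkm2 splice forms together, was read first as a check of the labels. On the scale shared by both fractions (recovered reads scaled by TMM, called common-scale reads), control rods held 64409, 62942 and 67987 reads and Rodko rods 29475, 27630 and 27316. Pkm was the lowest-p gene of 20658 in rods, with a log2 difference of -1.20 (SE 0.0838, limma adjusted p = 5.36e-05), and it was also lower in Rodko retina by a log2 difference of -0.65 (SE 0.0742, limma adjusted p = 0.0219). Libraries held 13458890 to 22790074 reads on genes. All 11 rod markers (Gnat1 and Nrl among them) were higher in rods than in retina in both genotypes, and the summed level of these markers in control rods was 399% of that in control retina. The labels were therefore kept as given.

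Sequence around the RefSeq start is shown for 4 of the members. Of these, 3 hold a TAATCC or CAGCTG motif, and the fourth, Sebox, lies next to a gene that is abundant in rods. RefSeq windows of 300 bases (250 before the start, 50 after it, GRCm38.p6, while the submitters' notes name GRCm39) were on hand for 6 of 8 members, not for Grik1 and Neto1. Capitals mark TAATCC, the core recognised by OTX2 and CRX, and CAGCTG, an E-box letter sequence, each on either strand. The windows are at chr7:13397905-13398204 (plus strand), chr13:116309639-116309938 (minus strand), chr2:150689088-150689387 (minus strand) and chr11:78503263-78503562 (plus strand), in the order printed.
Cabp5: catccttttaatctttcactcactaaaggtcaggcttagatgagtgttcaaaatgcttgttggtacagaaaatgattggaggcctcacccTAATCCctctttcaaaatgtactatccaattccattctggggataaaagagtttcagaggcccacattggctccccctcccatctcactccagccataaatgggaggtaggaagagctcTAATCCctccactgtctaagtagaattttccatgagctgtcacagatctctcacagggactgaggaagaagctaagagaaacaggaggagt
Isl1: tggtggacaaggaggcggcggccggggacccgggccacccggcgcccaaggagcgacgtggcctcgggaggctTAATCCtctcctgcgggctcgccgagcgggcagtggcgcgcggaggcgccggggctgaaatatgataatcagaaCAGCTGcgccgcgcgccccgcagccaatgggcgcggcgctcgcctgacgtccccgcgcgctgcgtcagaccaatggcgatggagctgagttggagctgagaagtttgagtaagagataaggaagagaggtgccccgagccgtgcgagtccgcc
Vsx1: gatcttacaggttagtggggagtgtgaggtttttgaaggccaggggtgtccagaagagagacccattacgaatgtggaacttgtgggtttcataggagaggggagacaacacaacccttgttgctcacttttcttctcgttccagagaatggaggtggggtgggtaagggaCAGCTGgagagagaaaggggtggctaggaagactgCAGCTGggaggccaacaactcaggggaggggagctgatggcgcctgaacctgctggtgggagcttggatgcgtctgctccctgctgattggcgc
Sebox: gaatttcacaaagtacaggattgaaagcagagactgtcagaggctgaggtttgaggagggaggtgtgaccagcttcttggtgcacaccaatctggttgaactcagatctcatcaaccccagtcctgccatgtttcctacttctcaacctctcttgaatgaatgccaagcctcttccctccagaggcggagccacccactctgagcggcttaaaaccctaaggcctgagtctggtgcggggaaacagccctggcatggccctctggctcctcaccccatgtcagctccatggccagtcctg
Cabp5 holds TAATCC at 160 and 41 bases before the start, and Isl1 holds it once, at 177 bases. Of 32851 promoter windows of this length, 7.06% hold TAATCC and 0.353% hold it 2 or more times. Vsx1 holds CAGCTG at 79 and 44 bases before the RefSeq start and Isl1 at 103 bases. This motif is present in 16.3% of all windows and 2 or more times in 1.90%. The GENCODE vM21 annotation starts Vsx1 further upstream, at chr2:150689360, so both its CAGCTG matches lie inside the gene as GENCODE draws it. Sebox, Bhlhe23 and Scgn hold neither. TAATTA, a homeodomain core, is in none of the 6 windows and in 5.29% of all. These are matches of letters and not measured binding.

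Each member was far lower in rods than in retina, in both genotypes. All 8 members passed the test as lower in control mice, where 35.7% of 25458 genes did, and all 8 passed it in Rodko mice, where 35.3% did. The log2 difference of control rods from control retina ran from -3.69 for Vsx1 to -2.02 for Sebox with a median of -3.00, beside a median of -0.36 over all genes, and in Rodko mice it ran from -3.60 to -2.06 with a median of -3.12, beside -0.31. Test and scale were limma on log2(common-scale reads + 1). All 8 kept the call under every scaling tried and whichever library was dropped. For all 8, every rod library was below every retina library of its genotype, beside 36.8% of genes in control and 36.9% in Rodko mice. Scaled by total reads, the median over members moved to -3.55 and that over all genes to -0.76, so that the median of the members minus that of all genes was -2.79, against -2.64 under the TMM scaling.

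Among the transcription factors, Vsx1 (ENSMUSG00000033080, chr2:150680702-150689360 on the minus strand in GRCm38) had the lowest log2 difference of rods from retina. Its 95% interval in control mice, -4.30 to -3.07, overlapped that of Bhlhe23, -3.39 to -2.67. Control rods held 23.7, 53.1 and 41.5 common-scale reads of Vsx1 and Rodko rods 21.4, 31.5 and 47.7. Control retina held 507, 511 and 466 and Rodko retina 306, 423 and 487. The genotypes overlapped in both fractions, on 15 to 59 recovered reads per rod library. Rods held 7.97% of the retina level in control mice (log2 difference -3.69, SE 0.290, limma adjusted p = 2.56e-08) and 8.27% in Rodko mice.

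Isl1 (ENSMUSG00000042258, chr13:116298281-116309689, minus strand) lay near the middle of the members. Its levels were 108, 151 and 111 common-scale reads in control rods and 88.1, 91.9 and 90.5 in Rodko rods. Retina held 952, 828 and 812 in control mice and 711, 774 and 679.8 in Rodko mice. The Rodko libraries were below all control libraries in both fractions. Rods held 14.2% of the retina level in control mice (log2 difference -2.81, SE 0.130, limma adjusted p = 1.23e-10) and 12.5% in Rodko mice.

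Bhlhe23 (ENSMUSG00000045493, chr2:180774381-180776900, minus strand), the rod bipolar factor, was measured at 60.2, 55.8 and 41.5 common-scale reads in control rods and 49.1, 34.1 and 42.8 in Rodko rods. In retina it was at 423, 437 and 433 in control mice and at 376, 428 and 425 in Rodko mice. Control and Rodko overlapped in both fractions. Rods held 12.2% of the retina level in control and 10.3% in Rodko mice. A processed transcript on the same strand, Gm14343, overlaps Bhlhe23 and had at most 28 reads in a library.

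Sebox (ENSMUSG00000001103, chr11:78503447-78505081, plus strand) kept the largest share of its retina level among the 8 members. It was at 218, 234 and 199.8 common-scale reads in control rods and at 206, 204 and 157 in Rodko rods. Retina held 915, 917 and 826 in control mice and 706, 848 and 804 in Rodko mice. Rods thus held 24.5% of the retina level in control mice and 24.0% in Rodko mice, against at most 16.1% and 12.9% for any other member. Its log2 difference in control mice was -2.02 (95% interval -2.28 to -1.77), which does not overlap the interval of the next member, Cabp5 (-2.86 to -2.40). Vtn, which encodes the secreted protein vitronectin, ends 1122 bases upstream of Sebox on the same strand. Vtn was at 47883 ± 5959 common-scale reads (SD, n = 3) in control rods and 11357 ± 241 in control retina, a rod level 422% of that in retina, and whether reads from Vtn are counted on Sebox was not tested.

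Cabp5 (ENSMUSG00000005649, chr7:13398132-13408887, plus strand) was at 282, 291 and 307 common-scale reads in control rods and at 198, 168 and 200.4 in Rodko rods. In retina it was at 2056, 1716 and 1703 in control mice and at 1347, 1513 and 1666 in Rodko mice. No Rodko library reached a control library in either fraction, with a wide gap in rods and a narrow one in retina. Rods held 16.1% of the retina level in control mice (log2 difference -2.63, SE 0.107, limma adjusted p = 4.92e-11) and 12.5% in Rodko mice.

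Scgn (ENSMUSG00000021337, chr13:23953456-23991214, minus strand) was at 127, 99.8 and 128 common-scale reads in control rods and at 102, 94.6 and 92.4 in Rodko rods. In retina it was at 1038, 896 and 855 in control mice and at 605, 709.5 and 917 in Rodko mice. The genotypes overlapped in both fractions by 1 library. Rods held 12.7% of the retina level in control mice and 12.9% in Rodko mice. Gm11339 lies antisense to Scgn and had at most 36 reads in a library, which cannot be told apart from Scgn reads if counting ignored strand.

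Grik1 and its auxiliary subunit were low in rods. Grik1 (ENSMUSG00000022935, chr16:87895900-88290265, minus strand) was at 144, 192 and 188 common-scale reads in control rods and at 132, 130.01 and 122 in Rodko rods. In retina it was at 1577, 1533 and 1335 in control mice and at 942, 1446 and 1319 in Rodko mice. In rods the 3 Rodko libraries were below the 3 control libraries, and in retina 1 Rodko library lay apart below the rest. Rods held 11.8% of the retina level in control mice and 10.3% in Rodko mice.

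Neto1 (ENSMUSG00000050321) had the fewest reads, 11 to 38 per rod library. Its levels were 17.4, 34.2 and 32.3 common-scale reads in control rods and 28.9, 21.0 and 26.3 in Rodko rods. In retina they were 354, 311 and 311 in control mice and 242, 334 and 322 in Rodko mice. Control 1 was the lowest rod library and the genotypes overlapped. Rods held 8.59% of the retina level in control mice and 8.48% in Rodko mice.

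**Figure D1:**
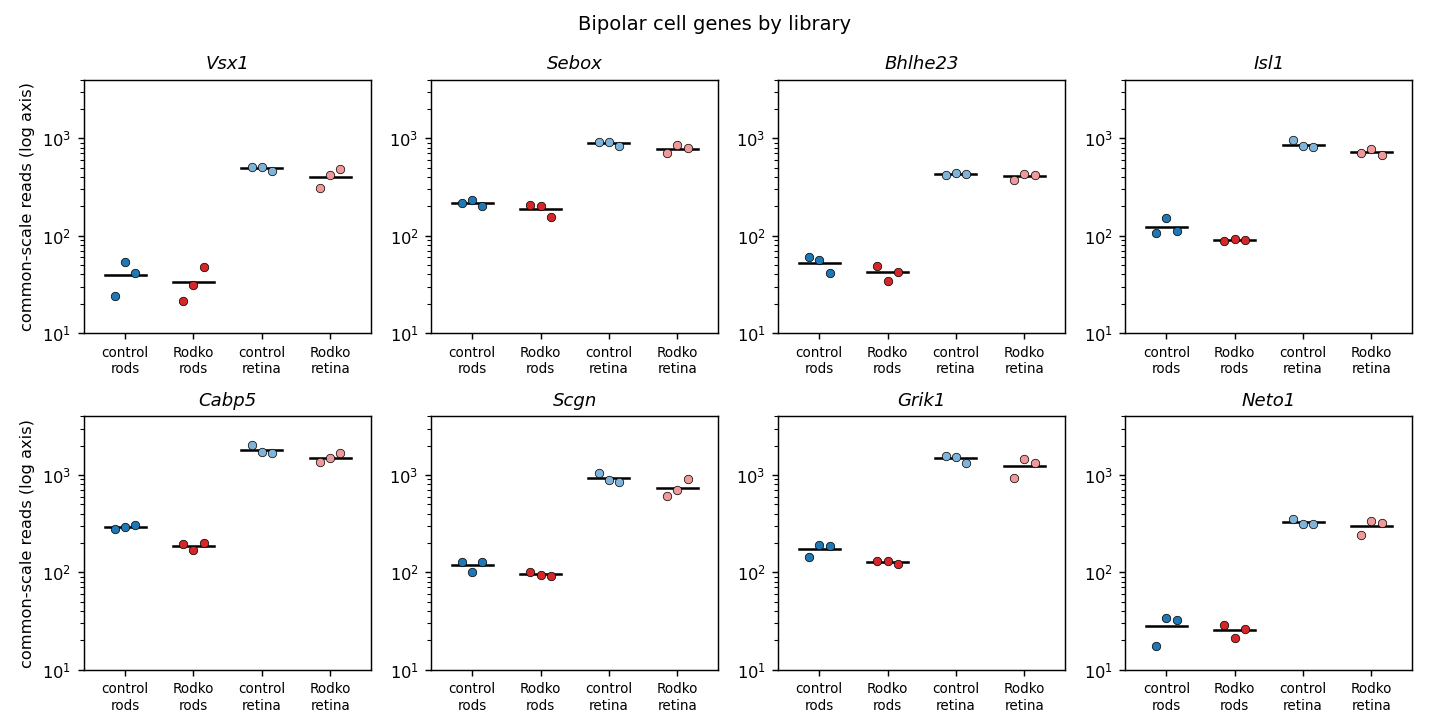
Common-scale reads (log axis) of the 8 bipolar cell genes in each library, 3 points per group with a bar at the group mean. Every rod library lies below every retina library for each gene, and in rods the Rodko points of Isl1, Cabp5 and Grik1 lie below all control points.

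Per kilobase of exon, the order of the members differed between the fractions. In control retina Cabp5 led with 722 ± 79.2 common-scale reads per kb (SD, n = 3), followed by Sebox at 652 ± 38.1 and Scgn at 574 ± 59.1, and neighbours among these overlapped between libraries. Grik1 at 220 ± 19.2 and Isl1 at 218 ± 19.4 overlapped too, and Bhlhe23 at 171 ± 2.83, Vsx1 at 131 ± 6.59 and Neto1 at 39.0 ± 3.01 followed without overlap. In control rods Sebox was first at 160.0 ± 12.5, above Cabp5 at 116 ± 5.13 and Scgn at 72.9 ± 9.73, each without overlap with the next. Isl1 at 31.1 ± 6.13, Grik1 at 25.9 ± 3.92 and Bhlhe23 at 20.8 ± 3.87 overlapped as neighbours, and Vsx1 at 10.4 ± 3.90 and Neto1 at 3.35 ± 1.10 were last.

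The share of the retina level left in rods was set beside that of other cell types. Summed over the 8 members it was 14.5% in control mice and 13.0% in Rodko mice. All shares are on the TMM scale and depend on it. Scaled by total reads, the members' median log2 difference in control mice was -3.55 in place of -3.00, so their shares would be lower. Marker sums of other cells that are not photoreceptors lay close by in control mice, at 14.6% for 10 Müller glia genes, 14.1% for 9 amacrine genes, 13.6% for 9 ganglion cell genes, 13.3% for 3 horizontal cell genes, 14.0% for 7 endothelial genes and 11.4% for 8 microglial genes. In Rodko mice the same sums were at 12.6%, 10.7%, 11.4%, 11.01%, 11.01% and 11.98%. The pigment epithelium, whose 6 genes summed to 1261 to 5376 common-scale reads in control retinas, was at 19.9% in control mice and 15.2% in Rodko mice, and 8 cone genes were at 62.8% and 63.6%. No gene of these lists was at 0 in all libraries of a group. In control rods 2 of 3 horizontal, 2 of 7 endothelial and 3 of 8 microglial genes had under 10 reads in every library. So did 1 of 6 pigment epithelial genes. Single genes in control mice ran from 4.41 to 27.6% for horizontal and from 3.16 to 59.3% for endothelial genes. Amacrine genes ran from 9.17 to 34.5%, ganglion cell genes from 9.84 to 43.0%, Müller genes from 7.73 to 17.2% and microglial genes from 7.87 to 14.8%. The part of carried RNA in the members' rod levels was not tested beyond these values.

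Other genes of bipolar cells were mostly depleted to a like degree. Of 32 genes in 3 lists, 28 passed the test as lower in control rods, 3 as higher and 1 neither, with the same counts in Rodko mice. All 12 other cone bipolar subtype markers were lower in control rods, from -3.89 for Erbb4 to -2.09 for Kcng4 on the log2 scale, with Prkar2b at -3.82 and Igfn1 at -2.34. Of 10 other bipolar transcription factors 8 were lower, Lhx3 by -3.52 and Neurod4 by -3.36. The other 2 were higher in control rods: Otx2, which photoreceptors also use, by 0.89 (limma adjusted p = 9.90e-08), and Prdm8 by 0.77 (limma adjusted p = 3.43e-06).

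Of 10 genes of the ON bipolar cascade and rod bipolar cells 8 were lower in control rods, Rgs11, a regulator of the mGluR6 G protein, by -3.63 and Pcp2 by -3.53. Lrit3, a leucine-rich repeat protein of the photoreceptor synapse, was higher in control rods by 0.66 (limma adjusted p = 0.000459). Prkca, the rod bipolar marker protein kinase C alpha, was at 4672 ± 530.2 common-scale reads (SD, n = 3) in control rods and 4868 ± 723 in control retina, a log2 difference of -0.05 (limma adjusted p = 0.764). Scaled by total reads, Otx2 kept its call at 0.34, Prdm8 and Lrit3 no longer passed the test at 0.22 and 0.11, and Prkca passed it as lower at -0.60 (limma adjusted p = 0.00232).

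The relatives of the receptor and calcium-binding members were also measured. All 5 other kainate receptor and Neto genes were lower in control rods, from -3.39 for Grik2 and -2.85 for Grik4 to -0.72 for Grik5, with Neto2 at -2.49. Of 6 other calcium-binding genes 5 were lower, led by Calb2 at -3.43 and Pvalb at -3.21. The sixth, Cabp4, the CaBP of photoreceptor terminals, was higher in control rods by 1.74 (limma adjusted p = 2.60e-10).

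**Figure D2:**
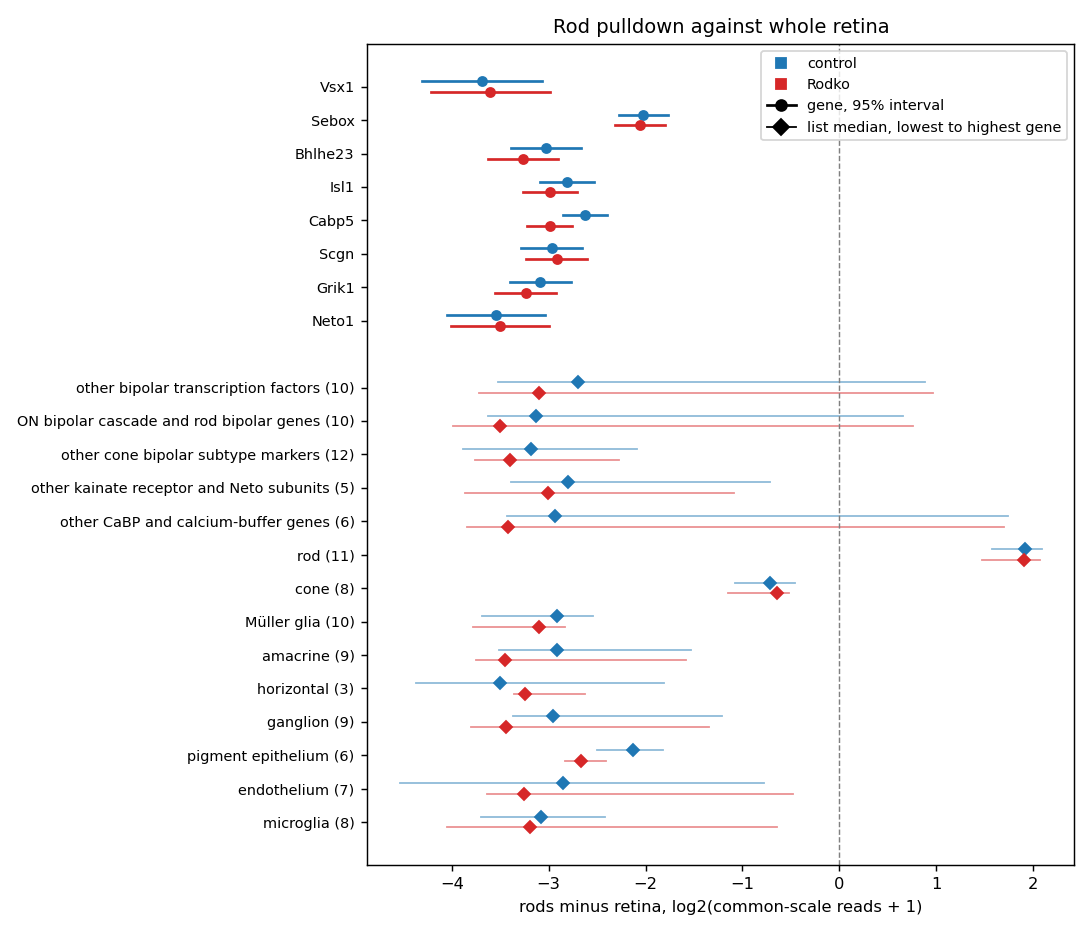
Difference of rods from retina in log2(common-scale reads + 1) for each bipolar cell gene (points with 95% intervals) and for other gene lists (median, with lines from the lowest to the highest gene; number of genes in parentheses), in control (blue) and Rodko (red). The 8 genes lie between -3.69 and -2.02, beside list medians of inner retinal cells near -3, and the 11 rod markers lie near 2.

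In rods, the members' levels were lower on average in Rodko than in control mice, but no member passed the test. The log2 difference, here of the deposited values plus 1, was negative for all 8 members, where 48.9% of 20658 genes were negative, with a median of -0.29 against 0.006 over all genes. None of 8 members was called at an adjusted p under 0.05, as was 0.0194% of all genes (Pkm, Gm6560, Adpgk and Gm6992, all lower). Members lower at an unadjusted limma p under 0.05 were 2 of 8, Cabp5 and Grik1, beside 3.41% of all genes. For 3 of 8 members, Isl1, Cabp5 and Grik1, every Rodko library was below every control library, beside 5.4% of all genes.

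Cabp5 had the largest genotype difference of the 8 members in rods. Its deposited values were 228.1, 236.4 and 246.5 in control rods and 159.2, 137.2 and 163.2 in Rodko rods. The log2 difference was -0.63 (SE 0.139, 95% interval -0.93 to -0.33), with an unadjusted limma p of 0.000588, the 14th lowest of 20658, and an adjusted p of 0.868. It ran from -0.68 to -0.55 when each library was left out in turn. In 1 fit of all 12 libraries it passed the test at -0.64 (limma adjusted p = 0.0453), the only alternative in which a member was called by genotype. The paper reporting these data lists Cabp5 among more genes lower in Rodko rods than were called here. Its qRT-PCR of selected genes in retina included Cabp5.

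The other members had smaller differences in rods. Grik1 differed by -0.42 (SE 0.172, 95% interval -0.80 to -0.05) and Isl1 by -0.42 (SE 0.198, 95% interval -0.85 to 0.0089), both with a limma adjusted p of 0.932. The remaining members were at -0.30 for Bhlhe23, -0.27 for Scgn, -0.22 for Vsx1, -0.20 for Sebox and -0.08 for Neto1, each with a 95% interval that included 0. For Vsx1 that interval ran from -1.03 to 0.59 and for Neto1 from -0.84 to 0.68. At 11 to 59 reads per library a change of 1.5-fold in these genes was therefore not detectable. Such a change was not sure to be called in the other members either. Cabp5, with the smallest SE of the members (0.139), was at -0.63 with a limma adjusted p of 0.868. That no member was called therefore does not show that levels were unchanged. The direction of Vsx1 and Neto1 turned when 1 library was left out, to at most 0.061 and 0.092.

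Marker sums of other retinal cells were set beside the members' sum in rods. As a percentage of the control mean, the summed members were at 93.6 to 106 in control rods and 74.0 to 78.9 in Rodko rods. By group means, Cabp5 alone made up 294 of 1046 common-scale reads of this sum in control rods and 189 of 793 in Rodko rods. Müller glia genes were at 87.4 to 111 and 71.8 to 85.0, amacrine genes at 81.9 to 122 and 69.9 to 72.9, ganglion cell genes at 91.5 to 113 and 63.6 to 99.4, and endothelial genes at 88.7 to 122 and 63.4 to 85.6. Of the 28 Müller, amacrine and ganglion genes 27 had a negative difference, with a median of -0.40, and none passed the test. Rod markers were at 93.6 to 105 and 98.0 to 107, and cone markers at 90.4 to 110 and 88.8 to 99.6. The ganglion cell sums overlapped between the genotypes, as did the cone and rod sums. The part of carried inner retinal RNA in the members' genotype difference was not tested.

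Other bipolar genes gave a like picture, with 24 of 32 negative, a median of -0.36, 10 of 32 lower in every Rodko rod library, and none called. Summed, the 10 other transcription factors, most of whose reads were Otx2, were at 92.5 to 98.8% of the control mean in Rodko rods, the 10 ON cascade and rod bipolar genes, most of whose reads were Prkca and Lrit3, at 85.9 to 117%, and the 12 other cone bipolar markers at 70.3 to 87.5%. The 5 other kainate receptor and Neto genes had a median of -0.37 and the 6 other calcium-binding genes one of -0.41, all 11 negative and none called. Microglial, pigment epithelial and horizontal cell genes had medians of -0.09, -0.03 and 0.13.

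**Figure D3:**
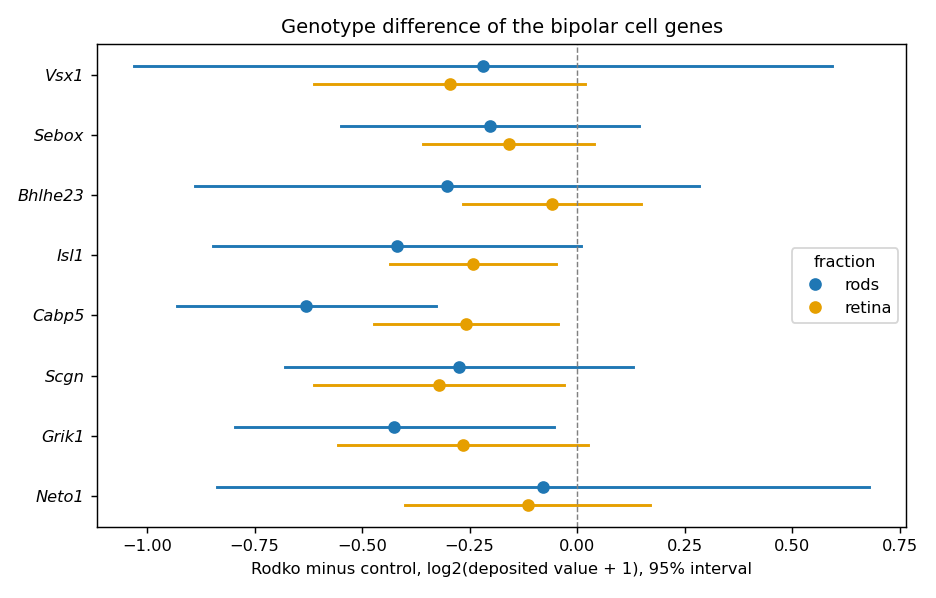
Rodko minus control difference in log2(deposited value + 1) with its 95% interval for each bipolar cell gene, in rods (blue) and retina (orange). All 16 differences are negative, and the largest is that of Cabp5 in rods at -0.63.

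In whole retina no member passed the genotype test, and the median over members moved most when 1 library, Rodko retina 1, was left out. All 8 members had a negative log2 difference of the deposited values plus 1, where 51.0% of 25590 genes were negative. It ran from -0.32 for Scgn to -0.06 for Bhlhe23, with a median of -0.25 beside -0.004 over all genes. None of 8 members was called, and of all genes Pkm alone was (0.00391%). Members lower at an unadjusted limma p under 0.05 were 3 of 8, beside 2.06% of all genes. They were Isl1 at -0.24 (95% interval -0.43 to -0.05), Cabp5 at -0.26 (-0.47 to -0.04) and Scgn at -0.32 (-0.61 to -0.03), each with a limma adjusted p of 0.947. Isl1 and Cabp5 were lower in all 3 Rodko libraries, 2 of 8 members beside 4.76% of genes.

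Rodko retina 1 held the lowest retina value of 7 of 8 members and of 17 of 32 other bipolar genes. Its members summed to 72.3% of the control mean, against 89.5 and 91.5% in the other Rodko retinas and 93.1 to 108% in control retinas. In the same library Müller glia genes were at 84.6%, amacrine genes at 87.3%, ganglion cell genes at 105% and rod genes at 111% of the control mean. Without it, the median over members was -0.09, Cabp5 was at -0.17, Scgn at -0.18 and Isl1 at -0.23, Grik1, Sebox and Vsx1 were at -0.08, -0.08 and -0.10, and Bhlhe23 and Neto1 turned to 0.0081 and 0.036. Control retina 1 held the highest retina value of 5 of 8 members and of 16 of 32 other bipolar genes. Without control retina 1 the median over members was -0.17. With all libraries, the other bipolar genes had a median of -0.12 in retina, with 30 of 32 negative and none called. Müller, amacrine and ganglion genes had a median of -0.08 in retina, with 23 of 28 negative and none called.

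**Figure D4:**
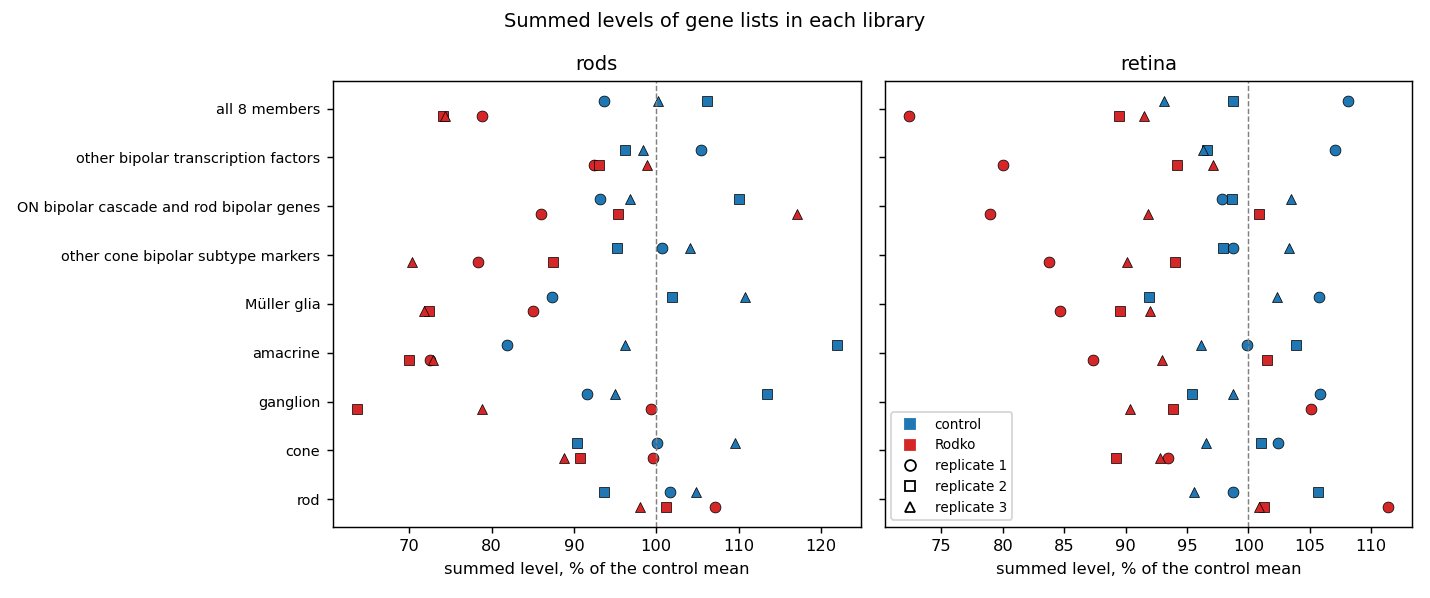
Summed common-scale reads of the members and of other gene lists in each library, as a percentage of the control mean of the same fraction (rods left, retina right; blue control, red Rodko; symbols mark replicates). In rods the 3 Rodko sums of the members lie at 74.0 to 78.9%, with Müller and amacrine sums below 100% too, while Rodko rod sums lie at 98.0 to 107%; in retina Rodko 1 (circle) has the lowest member sum, 72.3%.

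Whether the genotype difference was larger in rods than in retina was asked with an interaction term over all 12 libraries. No member passed the test, and neither did any of 25458 genes (0%; 1124 had an unadjusted limma p under 0.05, and DESeq2 called 1 gene, Pkm). Of the 8 members Cabp5 had the largest difference between the fractions, -0.36 (SE 0.152, 95% interval -0.69 to -0.04, limma adjusted p = 0.978). It was the 1 member of 8 lower at an unadjusted limma p under 0.05, as were 2.6% of all genes. The others lay between -0.24 for Bhlhe23 and 0.09 for Vsx1, and their 95% intervals included 0. The median over members was -0.09 with 5 of 8 negative, beside 49.3% of all genes. Müller, amacrine and ganglion genes had a median of -0.33 with 27 of 28 negative. Other bipolar genes had one of -0.20 with 21 of 32 negative. Other kainate receptor, Neto and calcium-binding genes were all negative. Of these, Neto2 at -0.52 and Cabp1 at -0.67 lay below Cabp5. The interval of Grik1 ran from -0.60 to 0.29.

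The genes whose profile was most like that of the members were sought among 13201 genes. Over all 12 libraries these were Glul, Syt11, Abca8a, AI504432 and Zeb2, with a Pearson r of 0.998 to 0.999 with the members' mean standardised log2 profile. Such an r is set by the step between rods and retina, which the 12 points share, and 620 genes reached at least 0.99. Glul, the Müller glia enzyme glutamine synthetase, was at 5589 common-scale reads in control rods and 35969 in control retina. Over the 6 rod libraries alone Zmiz1, Rian, Rap1gap, Actl6b and Cap2 came closest, with r from 0.983 to 0.996, and 244 genes reached at least 0.9. The members themselves reached 0.95 for Grik1, 0.92 for Cabp5 and for Isl1, and 0.40 to 0.61 for the other 5, which include those with the fewest reads in rods. Each member is part of the mean it was correlated with, which raises its r, whereas the genes outside the members are not. The 6 points share the genotype groups, so these values describe the libraries.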

How the data were processed

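Rod-TRAP and whole retinal RNA of 12 libraries were analysed from 1 table. The authors deposited a signal per gene and library: the read count over a size factor (median of ratios, computed separately in rods and in retina), given to 1 decimal. The submitters' processing notes name CASAVA 1.8.2, HISAT2, DESeq2, edgeR and GRCm39; the counter, its annotation and its use of strand are not given in the sources used here. Whole reads were recovered for 99.9996% of positive values (tolerance 0.051; lowest library 99.995%). Intervals cover the spread between libraries, and nothing states whether these are separate animals, so p-values may measure technical spread.

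Genotype was tested within each fraction by limma 3.58.1 (R 4.3.3, variance trend) on log2(value + 1), for genes with a mean of at least 1 in a group. Rods and retina were compared, and genotype by fraction tested, in 1 limma fit of log2(common-scale reads + 1), where reads were scaled by TMM (edgeR 4.0.16) over 12 libraries. Calls used a Benjamini-Hochberg adjusted p under 0.05 over all genes tested. With 3 against 3 libraries an exact permutation test of 1 gene cannot go below p = 0.1 and was not used. Scripts were tested on simulated data. Alternatives were edgeR and DESeq2 1.42.0 on recovered reads, other scalings, pseudocounts and filters, a replicate block, and each library left out. The members, gene lists and tests were chosen with earlier results of these data known. Named genes are the members, Pkm, list genes past the threshold by genotype, the 2 highest and 2 lowest rods-to-retina differences in control per list, of which some are printed, and the 5 most similar profiles (among genes with a mean of at least 50 common-scale reads in control retina). A further rod marker is not reported here. Exon lengths came from GENCODE vM21 (GRCm38).

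Replicate numbers are shared by all groups. Between genotypes, deviations of same-numbered libraries correlated at -0.24 to 0.11, so numbers were not taken as pairs. Between rods and retina of 1 genotype they correlated at 0.16 to 0.40, each best with its own number, so these are paired. The main fit of rods against retina and of genotype by fraction did not use this pairing. Its printed SEs, intervals and p-values are therefore unpaired, and only the alternative with a replicate block took the pairs into account.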

Additional observations from a re-analysis of the deposited data

How the results depend on the processing

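The count of genes called by genotype in rods, 4, was 17 in 1 fit of all 12 libraries, where 1 member, Cabp5, was called, 0 without the variance trend (1090 genes at an unadjusted limma p under 0.05), and 2 to 6 with each library left out (2 without Rodko 3, control 1 or control 2). On the recovered reads, edgeR called 4 genes by genotype in rods, 1 in retina, 14060 in control rods against retina and 14320 in Rodko mice. In retina the 1 call became 0 with at least 10 reads in every library (659 at an unadjusted limma p under 0.05) and 0 to 4 with a library left out (0 without any 1 Rodko library or control 1, 2 without control 2, 4 without control 3). That read filter left 12918 genes for rods against retina, of which 9526 were called in control (5912 higher, 3614 lower) and 9651 in Rodko mice, against 15094 and 15102. With total-read scaling the control split was 2186 higher and 12701 lower, against 6004 and 9090. Genotype by fraction gave 1 call with DESeq2.

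With the replicate number as a block, genotype gave 8 calls in rods and 0 in retina (940 at an unadjusted limma p under 0.05), where the pairing did not hold. In rods against retina, where it did, the block gave 15635 and 15616 calls and changed no call on a member.

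Members called numbered 0 by genotype under all other alternatives and 8 in rods against retina under all. With libraries left out, the genotype difference ran from -0.53 to 0.061 for Vsx1 and -0.37 to 0.092 for Neto1 in rods, and from -0.095 to 0.0081 for Bhlhe23 and -0.20 to 0.036 for Neto1 in retina. Genotype by fraction ran from -0.25 to 0.34 for Vsx1, -0.12 to 0.10 for Sebox, -0.084 to 0.22 for Scgn and -0.27 to 0.23 for Neto1, which was 0.04 as reported, -0.079 with edgeR and -0.075 with DESeq2. The causes were not tested. Neto1, Vsx1 and Bhlhe23 had 11 to 62 reads per rod library.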
